A study of Mus musculus with 6 samples.

Results

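The genes described here are those of the immunoglobulin loci: every row of the count table that names a heavy chain variable gene (Ighv), a kappa variable gene (Igkv) or a lambda variable gene (Iglv), together with the constant genes Ighm, Ighd, Igha, Ighg1, Ighg2b, Ighg2c, Ighg3 and Igkc and the joining chain gene Jchain. This rule, which used names and no measured value, gave 281 genes, or 1.04% of those in the table, in which 26981 genes had a count in at least 1 of the 5 libraries compared below. Of the members 147 were Ighv, 122 Igkv, 3 Iglv and 9 constant or joining chain genes. The libraries were labelled as bone marrow mesenchymal stromal cells of mice on a C57BL/6 background, and polyadenylated RNA was sequenced from 3 Hes1 KO and 3 wild type (WT) libraries. Hes1 KO mice came from crosses of heterozygous Hes1 fl/+ animals with Prx1Cre mice, whose Cre is driven by the Prx1 promoter and enhancer in early limb bud mesenchyme and some craniofacial mesenchyme. The labels give neither the number of deleted alleles, nor whether WT mice carried the floxed allele or Cre, nor age, nor whether each library is a separate animal or culture. A p-value here is thus set against the spread among the libraries, which may be technical.

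Immunoglobulin is made by B-lineage cells and not by stromal cells. A B cell precursor in the bone marrow joins V, D and J segments by V(D)J recombination, first at the heavy chain locus and then at a light chain locus, and the rearranged V region is transcribed together with a constant gene. Immature and naive B cells make IgM and IgD from Ighm and Ighd, class switching moves the same V region to a gamma or alpha constant gene, and plasma cells secrete the product, with the joining chain linking the units of IgM and IgA polymers. In bulk RNA, fewer B-lineage cells and less immunoglobulin RNA per cell cannot be told apart.

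The Hes1 KO libraries held 22131465, 21170047 and 20563116 counts, and the WT libraries 66167, 5812598 and 12109170. WT replicate 1 was so shallow that 1 count was worth 15.1 CPM (counts scaled to the same library total), so its values are given apart and the comparison is of 3 Hes1 KO libraries with WT replicates 2 and 3. A list of 12 erythroid genes, led by Hbb-bs and Hbb-bt, took 42.7% of all counts in WT replicate 3, against 0.0200% to 0.354% in the 5 other libraries, so plain CPM in WT replicate 3 is low for every other gene. Levels are therefore given as CPM, as CPM of the counts outside the erythroid list, and as CPM on effective library sizes (TMM-scaled CPM), a scaling set by the bulk of the genes. Hes1 itself had 185, 220 and 255 counts in Hes1 KO libraries, against 310 and 345 in the shallower WT replicates 2 and 3 (log2 fold change -2.55, SE 0.31, adjusted p = 0.030 by edgeR's quasi-likelihood test). Markers of the labelled cell type ranged from nearly absent to well detected, and Runx2 alone made up most of their counts. Prrx1 was at 2, 0 and 1 counts in Hes1 KO libraries and at 0, 1 and 0 in WT libraries. A list of 17 stromal genes took 0.0206% to 0.0342% of counts in Hes1 KO libraries and 0.0227% and 0.00842% in WT replicates 2 and 3. Its most abundant genes were Runx2 and Eng. Runx2 had 5767, 2715 and 3852 counts in Hes1 KO versus 882 and 657 in WT replicates 2 and 3. The whole list had 7580, 4352 and 5490 in Hes1 KO versus 1321 and 1020. Eng had 902, 506 and 697 in Hes1 KO versus 184 and 262. Of the 17 genes 6 had too few counts for the test used below: Prrx1, Pdgfra, Sp7, Bglap, Dcn and Lum.

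Sequences of 4 V genes that the results below turn on are shown first, from GENCODE M21 transcripts on GRCm38, in coding direction. The first 3 are Igkv1-110 and Igkv1-135, kappa genes that ranked first in 1 group each, and Igkv1-117, the nearest copy of Igkv1-110, and the first 300 bases after the leader are printed. In Igkv1-117 (chr6:68121046-68121827, plus strand) and Igkv1-135 (chr6:67609713-67610508, plus strand) capitals mark bases that differ from Igkv1-110 (chr6:68270485-68271267, plus strand).
Igkv1-110: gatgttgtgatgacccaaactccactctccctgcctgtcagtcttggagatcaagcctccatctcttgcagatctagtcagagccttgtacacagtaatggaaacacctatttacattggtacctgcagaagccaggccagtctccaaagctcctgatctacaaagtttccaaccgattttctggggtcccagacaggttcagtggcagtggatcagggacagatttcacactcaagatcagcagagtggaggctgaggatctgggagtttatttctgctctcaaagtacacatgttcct
Igkv1-117: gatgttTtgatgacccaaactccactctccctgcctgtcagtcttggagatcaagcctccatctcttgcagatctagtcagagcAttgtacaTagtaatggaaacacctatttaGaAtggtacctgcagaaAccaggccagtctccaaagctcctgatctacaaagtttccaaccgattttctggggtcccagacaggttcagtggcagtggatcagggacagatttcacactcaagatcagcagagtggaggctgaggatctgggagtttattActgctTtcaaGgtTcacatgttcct
Igkv1-135: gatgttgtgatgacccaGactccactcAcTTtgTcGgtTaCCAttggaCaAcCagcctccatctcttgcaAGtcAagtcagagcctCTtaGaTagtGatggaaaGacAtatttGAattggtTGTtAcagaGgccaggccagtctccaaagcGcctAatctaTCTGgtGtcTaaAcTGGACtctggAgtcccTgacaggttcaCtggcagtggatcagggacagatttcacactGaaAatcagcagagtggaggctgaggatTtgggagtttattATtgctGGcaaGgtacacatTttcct
Igkv1-117 differed from Igkv1-110 at 10 of 300 bases (96.7% identity) and Igkv1-135 at 56 (81.3%). The heavy chain gene Ighv5-2 (chr12:113578504-113578990, minus strand), the called gene with the most counts after Igkv1-135, is printed over the first 300 bases of its coding part with the start codon in capitals.
Ighv5-2: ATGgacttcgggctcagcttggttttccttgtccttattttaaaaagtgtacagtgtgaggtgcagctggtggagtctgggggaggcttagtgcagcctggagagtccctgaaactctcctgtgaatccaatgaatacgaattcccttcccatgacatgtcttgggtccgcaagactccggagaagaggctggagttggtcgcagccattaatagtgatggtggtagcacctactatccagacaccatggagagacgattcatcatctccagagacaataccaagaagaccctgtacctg
Such likeness bears on the counts. Of the 271 V genes with a GENCODE sequence, 57 shared no 50-base window with any other V gene, 34 shared over 50% of their windows, and the median share was 20.4%. Igkv1-110 shared 50.9% of its windows and Igkv1-135 36.5%, while Ighv5-2 shared none. The sources used here do not say how reads that match several V genes were counted, so counts of single V genes with close copies are uncertain.

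Across the tested immunoglobulin genes most fold changes were negative. The test could be made for 159 of the 281 members, and the other 122 had too few counts, with at most 84 in any of the 5 libraries. Of the 159, 11 were lower in Hes1 KO at an adjusted p under 0.05 and 0 were higher. An unadjusted p under 0.05 was found for 52, beside 6441 of all 16190 genes tested. A negative log2 fold change was found for 138, beside 7978 of all genes tested. The median log2 fold change was -1.12, against 0.02 over all 16190 genes tested. Among all genes tested 8.04% were called lower and 7.50% higher, so the share of members called lower, 6.92%, was near the background. In TMM-scaled CPM, 80 members were lower in every Hes1 KO library than in both WT libraries and 2 were higher in every one, beside 24.5% and 31.2% of all genes tested. In plain CPM the counts were 32 lower and 5 higher, beside 7.54% and 35.1%. These calls rested on the libraries used. With WT replicate 1 in the fit, 0 of 121 members tested and 0 of all 14756 genes were called. The smallest adjusted p of a member by edgeR was then 0.306. An unadjusted p under 0.05 was found for 17 members, beside 2219 of all genes. With any 1 Hes1 KO library left out 0 members were called, as were 0 of all genes tested. Without WT replicate 2, 26 members were called lower and 2 higher, beside 14.3% and 14.6% of all genes tested, and without WT replicate 3, 15 lower and 1 higher, beside 18.4% and 17.1%. DESeq2 called 36 members lower and 2 higher, beside 18.2% and 12.7% of all genes tested. With library size alone as the scaling 0 members and 0 of all genes were called, and the members' median was -0.60, beside 0.44 over all genes.

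**Figure D1:**
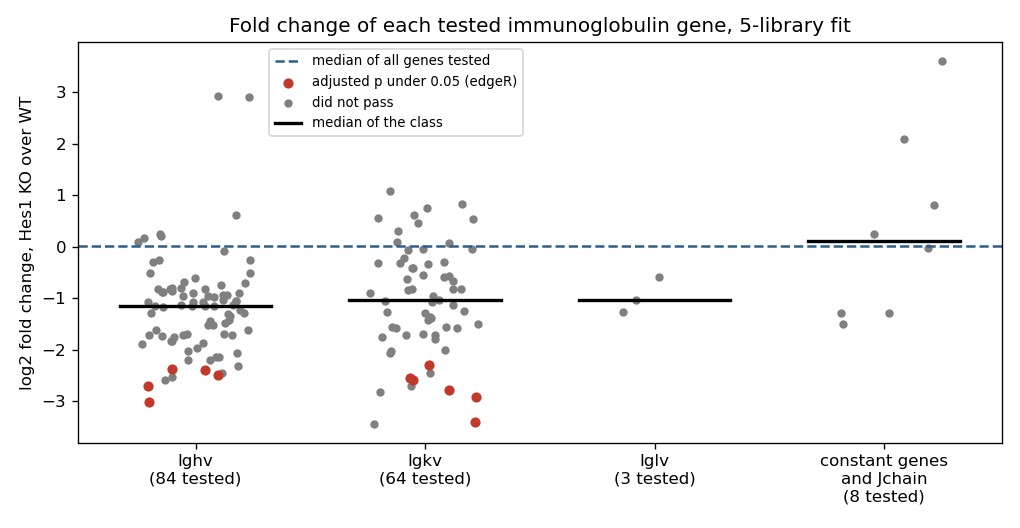
Log2 fold change of Hes1 KO over WT (vertical axis) for each tested immunoglobulin gene in the 5-library fit, by gene class, with class medians as black lines and the median of all genes as a dashed line. The 11 red points passed and all lie below -2, and the V classes have medians near -1 while the constant gene class has its median at 0.12.

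Among the constant genes, Ighm, the mu heavy chain of IgM, was by far the most abundant. It had 20591, 19301 and 27802 counts in Hes1 KO libraries versus 10104 and 16858 in WT replicates 2 and 3, which is 930, 912 and 1352 CPM in Hes1 KO against 1738 and 1392 CPM in WT. Every Hes1 KO library was below both WT libraries, also in TMM-scaled CPM, where Ighm was at 738, 866 and 1093 in Hes1 KO and at 1278 and 3134 in WT. The difference did not pass edgeR's test (log2 fold change -1.30, SE 0.58, adjusted p = 0.152). Ighd, the delta heavy chain of IgD on naive B cells, was at 9.89, 15.7 and 18.2 TMM-scaled CPM in Hes1 KO and at 18.8 and 63.6 in WT, also without overlap and without passing (log2 fold change -1.50, SE 0.53, adjusted p = 0.097). Igkc, the kappa constant gene, was at 74.4, 146 and 177 TMM-scaled CPM in Hes1 KO and at 250 and 398 in WT (log2 fold change -1.29, SE 0.42, adjusted p = 0.083). In plain CPM the groups overlapped for Igkc, at 93.9, 154 and 219 in Hes1 KO versus 340 and 177 in WT. DESeq2 called all 3 lower, with adjusted p of 0.027 for Ighm, 0.047 for Ighd and 0.033 for Igkc, as did edgeR without WT replicate 2 (0.024, 0.009 and 0.046). Without WT replicate 3 the log2 fold changes were -0.47 for Ighm, -0.33 for Ighd and -0.88 for Igkc, and none passed.

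Of the constant genes used after class switching, Ighg1 was higher in every Hes1 KO library, and the groups overlapped for the others that were tested. Ighg1, the IgG1 heavy chain, had 183, 47 and 425 counts in Hes1 KO libraries versus 5 and 4 in WT replicates 2 and 3. Every Hes1 KO library was above both WT libraries, at 6.56, 2.11 and 16.7 TMM-scaled CPM in Hes1 KO against 0.632 and 0.744 in WT. Its log2 fold change of 3.61 (SE 0.94) was the largest of the members tested and did not pass the threshold (adjusted p = 0.053). DESeq2 called it, and limma-voom did not (adjusted p = 0.213). It also did not pass in edgeR fits that called 0 of all genes. These gave adjusted p of 0.306 with all 6 libraries, 0.145 with library size alone and 0.112 to 0.146 without 1 Hes1 KO library. Ighg2c, the IgG2c heavy chain of C57BL/6 mice, had 60, 284 and 213 counts in Hes1 KO versus 24 and 3 in WT, and the groups overlapped in TMM-scaled CPM (log2 fold change 2.08, SE 0.98, adjusted p = 0.168). Ighg2b had 278, 228 and 1015 counts in Hes1 KO versus 47 and 187 in WT (log2 fold change -0.02, SE 0.90, adjusted p = 0.989). Its value was 1.77 without WT replicate 3, -0.79 without WT replicate 2 and -1.05 without Hes1 KO replicate 3, and none of these passed. Ighg3 had 0, 0 and 19 counts in Hes1 KO versus 0 and 1 in WT and was not tested.

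Igha, the IgA heavy chain, had 1678, 2918 and 2664 counts in Hes1 KO versus 1108 and 135 in WT. The WT libraries lay on either side of the Hes1 KO range, at 60.1, 131 and 105 TMM-scaled CPM in Hes1 KO versus 140 and 25.1 in WT (log2 fold change 0.25, SE 0.71, adjusted p = 0.810). Jchain also differed widely between the WT libraries, with 807, 1077 and 1019 counts in Hes1 KO versus 281 and 48 in WT, or 28.9, 48.3 and 40.1 TMM-scaled CPM in Hes1 KO versus 35.5 and 8.92 in WT (log2 fold change 0.81, SE 0.58, adjusted p = 0.332). Without WT replicate 2, both Igha and Jchain were called higher in Hes1 KO, while without WT replicate 3 the log2 fold change of Igha was -0.47. Jchain counts per Igha count were 0.481, 0.369 and 0.383 in Hes1 KO versus 0.254 and 0.356 in WT.

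**Figure D2:**
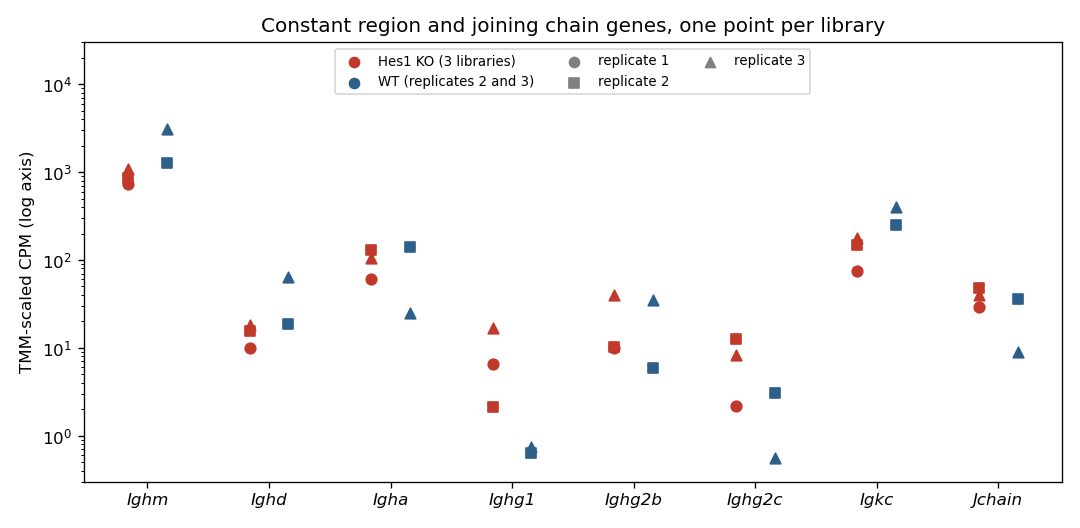
TMM-scaled CPM (log axis) of the constant genes and Jchain, 1 point a library, with Hes1 KO left of WT replicates 2 and 3 and marker shape for the replicate. Ighm, Ighd and Igkc are lower in every Hes1 KO library, Ighg1 is higher in every one, and the groups overlap for the others.

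Shares within the heavy chain constant counts do not depend on the library scaling. Ighm took 89.3%, 83.5% and 85.3% in Hes1 KO libraries versus 88.3% and 96.2% in WT replicates 2 and 3, with overlap. The 4 Ighg genes together took 2.26%, 2.42% and 5.13% in Hes1 KO (mean 3.27% ± 1.61, SD, n = 3) and 0.665% and 1.11% in WT. The Wilson 95% intervals, which cover counting error only, were 2.07% to 2.46% in the lowest Hes1 KO library and 0.967% to 1.28% in the highest WT library. Within the Ighg counts, Ighg1 took 35.1%, 8.41% and 25.4% in Hes1 KO versus 6.58% and 2.05% in WT, of 76 and 195 Ighg counts in WT. With 3 libraries against 2 there are 10 splits, so no exact permutation test of a share can go below p = 0.1. Igha took 7.27%, 12.6% and 8.17% in Hes1 KO versus 9.69% and 0.770% in WT, so the IgA share differed more between the WT libraries than between the groups.

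**Figure D3:**
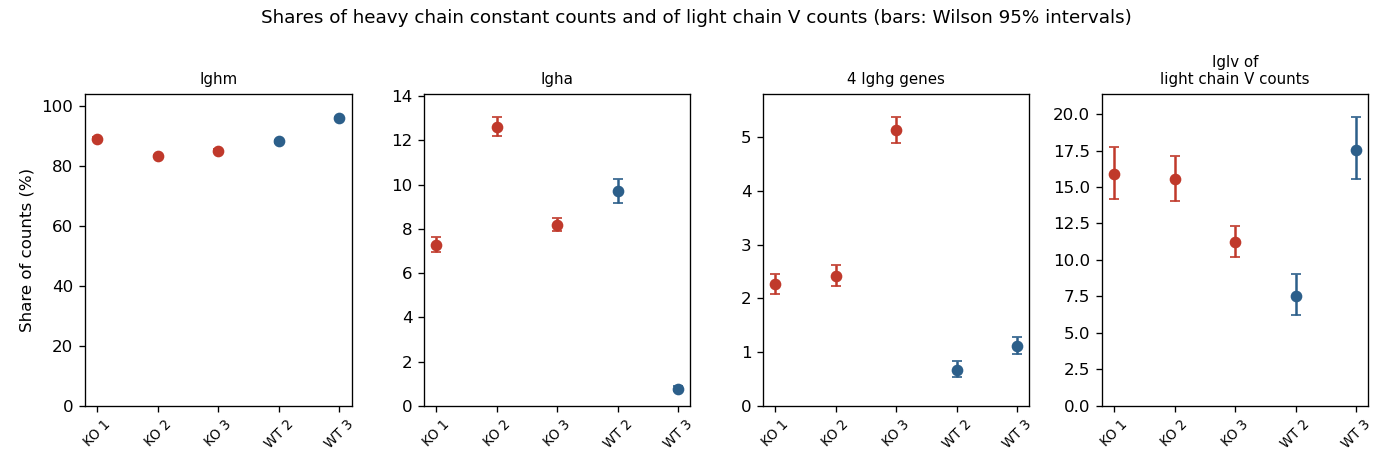
Share (%) of the heavy chain constant counts taken by Ighm, Igha and the 4 Ighg genes, and of Iglv in the light chain V counts, 1 point a library with Wilson 95% intervals. The 3 Hes1 KO libraries lie above both WT libraries for the Ighg genes, and the groups overlap in the other panels.

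Summed over each class, Ighv and Igkv genes were lower in every Hes1 KO library on 2 of 3 scales, and Iglv genes overlapped on all 3. The Ighv sum was 94.1, 117 and 168 CPM in Hes1 KO versus 281 and 123 CPM in WT, with overlap. In TMM-scaled CPM it averaged 107 ± 30.7 in Hes1 KO (SD, n = 3) and was 207 and 276 in WT, and in CPM of the counts outside the erythroid list 127 ± 38.0 in Hes1 KO versus 281 and 214 in WT. The Igkv sum was 60.1, 87.2 and 139 CPM in Hes1 KO versus 214 and 83.0 CPM in WT, and averaged 80.8 ± 32.2 TMM-scaled CPM in Hes1 KO against 157 and 187 in WT. Heavy chain constant genes and Igkc followed the same order, without overlap on the scales that correct for erythroid counts and with overlap in plain CPM. The Jchain sum also overlapped on all 3 scales. Per kilobase of transcript in TMM-scaled CPM, Ighm was at 434, 510 and 644 in Hes1 KO versus 752 and 1846 in WT, above the summed Ighv genes at 204, 309 and 371 in Hes1 KO versus 571 and 758 in WT.

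**Figure D4:**
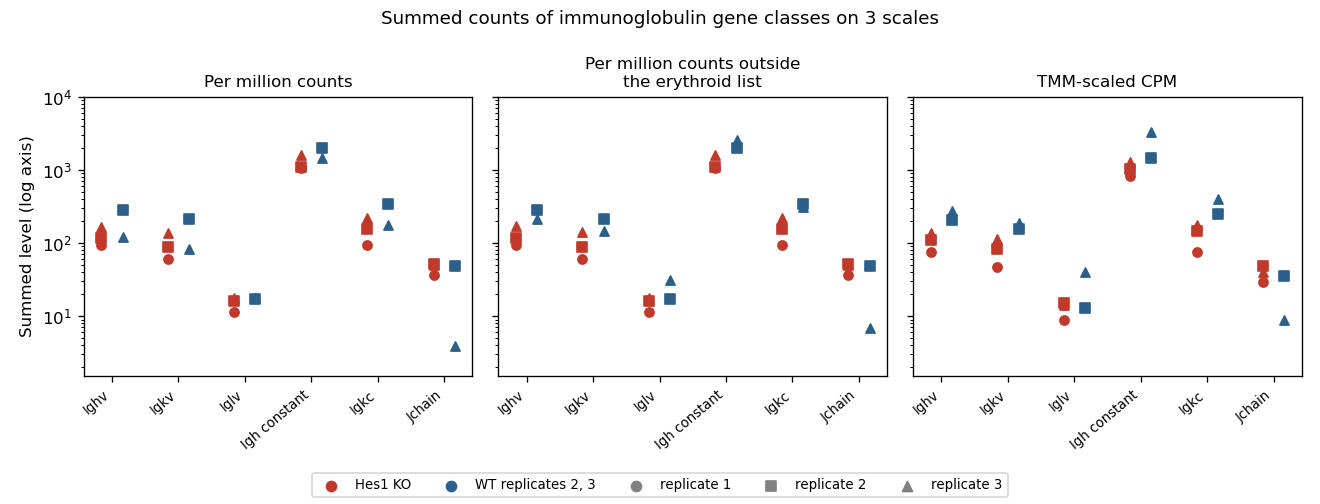
Summed level (log axis) of each immunoglobulin class in plain CPM, in CPM of the counts outside the erythroid list, and in TMM-scaled CPM, with Hes1 KO left of WT replicates 2 and 3. Ighv, Igkv, heavy chain constant and Igkc sums are lower in every Hes1 KO library in the middle and right panels and overlap in the left one.

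Of the 84 Ighv genes tested, 77 had a negative log2 fold change (median -1.16) and 5 passed. Of the 64 Igkv genes, 54 were negative (median -1.04) and 6 passed. The 3 Iglv genes had log2 fold changes of -1.04 (Iglv1), -1.27 (Iglv3) and -0.59 (Iglv2), and none passed, while DESeq2 called Iglv3 (adjusted p = 0.043). Without WT replicate 3 the values were 0.26 for Iglv1 and 0.51 for Iglv2, and with library size alone as the scaling Iglv2 was at 0.22. Igkv1-135 was the only called member with abundant counts, at 39, 64 and 121 in Hes1 KO versus 217 and 74 in WT. It was at 1.40, 2.87 and 4.76 TMM-scaled CPM in Hes1 KO versus 27.4 and 13.8 in WT, without overlap (log2 fold change -2.77, SE 0.57, adjusted p = 0.037). Ighv5-2 had 21, 18 and 16 counts in Hes1 KO versus 27 and 33 in WT, which is 0.752, 0.808 and 0.629 TMM-scaled CPM in Hes1 KO against 3.41 and 6.13 in WT (log2 fold change -2.70, SE 0.42, adjusted p = 0.030). Both WT values exceed every Hes1 KO value, although the raw counts are close, the Hes1 KO libraries being deeper.

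The remaining called V genes were scarce. Ighv12-3 had 4, 3 and 5 counts in Hes1 KO versus 8 and 9 in WT (log2 fold change -3.02, SE 0.50, adjusted p = 0.030). Igkv4-50 had 8, 8 and 6 counts in Hes1 KO versus 14 and 15 in WT (log2 fold change -2.92, SE 0.46, adjusted p = 0.030). Igkv10-95, Igkv1-122, Ighv3-1 and Ighv2-3 had log2 fold changes of -2.58, -2.55, -2.50 and -2.39, with adjusted p of 0.035 to 0.050. The last of the 11, Igkv3-5, Ighv1-4 and Igkv14-100, fell outside the rule for named genes and were chosen after their values were seen, with log2 fold changes of -3.41, -2.37 and -2.30. In 9 of the 11 the WT mean was below 2 CPM, and outside Igkv1-135 no library had more than 33 counts of any of them.

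The 16 most abundant V genes, 8 of each locus, had negative log2 fold changes in 14 cases, and 1 of them, Igkv1-135, passed. With library size alone as the scaling, Ighv1-55 and Ighv1-81 turned positive, at 0.18 and 0.47, as did Ighv1-55 without WT replicate 2 (0.19) or without a filter on low counts (0.086), and Ighv1-81 without WT replicate 3 (0.59). Ighv1-26, the most abundant Ighv gene, had 100, 145 and 211 counts in Hes1 KO versus 90 and 76 in WT (log2 fold change -1.06, SE 0.40, adjusted p = 0.110). Ighv14-2 had 28, 40 and 96 counts in Hes1 KO versus 54 and 47 in WT (log2 fold change -1.83, SE 0.57, adjusted p = 0.078). Igkv1-110 was one of the exceptions, with 139, 215 and 318 counts in Hes1 KO versus 47 and 14 in WT (log2 fold change 1.07, SE 0.54, adjusted p = 0.191). Its close relative Igkv1-117 had 89, 70 and 206 counts in Hes1 KO versus 62 and 36 in WT (log2 fold change -0.60, SE 0.50, adjusted p = 0.405). The pseudogene Ighv1-41, chosen after its values were seen, had 61, 182 and 61 counts in Hes1 KO versus 7 and 1 in WT, higher in every Hes1 KO library (log2 fold change 2.92, SE 0.95, adjusted p = 0.081), and DESeq2 called it.

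Within each locus the shares of V genes were compared, again without regard to scaling. The Ighv1 family, the largest, took 55.9%, 61.0% and 56.8% of Ighv counts in Hes1 KO versus 52.0% and 50.6% in WT. Within it the pseudogene Ighv1-41 alone took 2.93%, 7.34% and 1.77% of Ighv counts in Hes1 KO versus 0.428% and 0.0673% in WT. The Ighv2 and Ighv5 families, which lie at the end of the heavy chain V region nearest the D segments and are favoured in early rearrangements, together took 9.17%, 9.43% and 10.9% in Hes1 KO versus 15.3% and 15.2% in WT. Of the 15 Ighv families 5 had shares that did not overlap between the groups, with 20.0% of families lower in Hes1 KO and 13.3% higher. Of the 20 Igkv families 4 did not overlap, with 10.0% lower and 10.0% higher. With 10 splits of 3 libraries against 2, shares unrelated to the groups would give 10.0% in each direction on average. Igkv1-110 took 10.4%, 11.6% and 11.2% of Igkv counts in Hes1 KO versus 3.78% and 1.39% in WT, and it was the most abundant Igkv gene in all 3 Hes1 KO libraries. Igkv1-135 took 2.93%, 3.47% and 4.25% in Hes1 KO versus 17.4% and 7.36% in WT, and it ranked first in both WT libraries. The single genes and the joint share of Ighv2 and Ighv5 were picked after their values were seen, and no test was made of them.

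**Figure D5:**
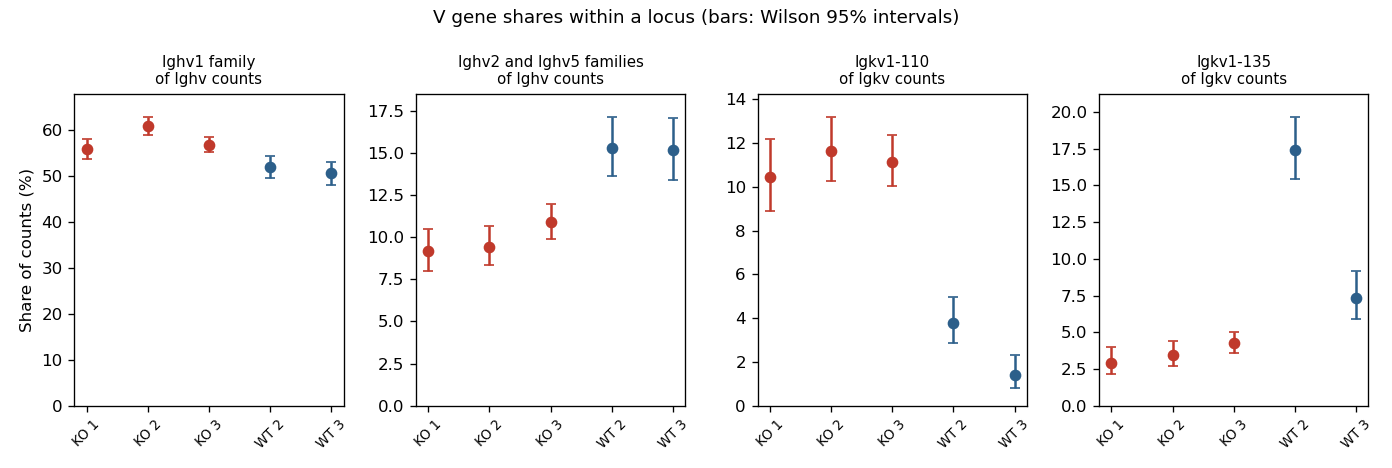
Share (%) of the Ighv counts taken by the Ighv1 family and by the Ighv2 and Ighv5 families, and of the Igkv counts taken by Igkv1-110 and Igkv1-135, 1 point a library with Wilson 95% intervals. Hes1 KO lies above WT for the Ighv1 family and Igkv1-110 and below it in the other panels, for items partly picked by this difference.

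V gene use was broad in all 5 libraries. Of 147 Ighv genes 126, 124 and 122 had a count in Hes1 KO versus 128 and 116 in WT, and the 10 most abundant took 38.6%, 37.1% and 33.6% of Ighv counts in Hes1 KO versus 31.0% and 31.2% in WT. At an equal depth of 1485 Ighv counts, the expected number of genes with a count was 120, 118 and 111 in Hes1 KO versus 126 and 116 in WT, with overlap. For Igkv at 1005 counts it was 86.2, 89.6 and 91.9 in Hes1 KO versus 98.3 and 103 in WT, without overlap. These gene numbers include pseudogenes. Igkv pseudogenes took 0.751%, 0.650% and 0.842% of Igkv counts in Hes1 KO versus 2.17% and 3.18% in WT, also without overlap. The Ighv pseudogene share overlapped, at 5.47%, 10.8% and 3.79% in Hes1 KO versus 10.5% and 2.49% in WT. The part of pseudogenes in the Igkv difference was not tested. The 10 most abundant Igkv genes took 42.7%, 46.5% and 48.1% in Hes1 KO versus 49.4% and 37.2% in WT.

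The members were set beside other genes of the B lineage, from lists chosen with earlier results of these data known. In the same 5-library fit, genes said to rise or fall passed edgeR's test at an adjusted p under 0.05. Among all genes tested 7.50% rose and 8.04% fell. With all 6 libraries, or with any 1 Hes1 KO library left out, edgeR called 0 of all genes. Of 15 B cell identity genes tested 4 fell and 0 rose (median log2 fold change -1.76), and all 15 were negative. Those that fell included Ebf1 (-3.51) and Pax5 (-2.22), transcription factors that commit cells to the B lineage, and Fcrla (-1.81). Of 14 early B and V(D)J genes, 6 fell and 0 rose (median -1.60), and all 14 were negative. Those that fell included Rag1 (-3.12), part of the recombinase that joins V segments, and the transcription factors Lef1 (-2.51) and Erg (-1.58). Of 15 plasma cell genes, 5 rose and 4 fell (median 0.66). Ssr4 (1.72) and Txndc5 (1.39), which serve protein secretion, rose, and the surface receptor Slamf7 (-1.95) fell. The others that rose were Xbp1 (1.22), Creld2 (1.25) and Tnfrsf17 (5.79), the last with 11, 7 and 11 counts in Hes1 KO. The others that fell were Irf4 (-2.63), Cd38 (-2.14) and Prdm1 (-1.76). Of 9 class switch and mutation genes tested none passed, with 4 at an unadjusted p under 0.05 (median 0.11). Of 8 receptor and transport genes for immunoglobulin, 5 rose and 0 fell (median 2.51), among them Fcgr1 (6.07), an IgG receptor of myeloid cells, Fcgr2b (1.36), the inhibitory IgG receptor of B cells and myeloid cells, and Fcgrt (2.56), which recycles IgG. Of 3 octamer factor genes, which act at immunoglobulin promoters, Pou2f1 fell (-2.21). The lambda constant genes Iglc1 and Iglc3, which are not members, had 150 to 295 and 148 to 312 counts in Hes1 KO versus 60 to 199 and 57 to 221 in WT, and neither passed.

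Immunoglobulin counts were also set against the counts of these B-lineage genes. All members together gave 1.06, 1.23 and 0.988 counts per count of the B cell identity list in Hes1 KO versus 0.474 and 0.607 in WT. Ebf1 alone made up 51.7% of that list in WT replicate 2, and without it the ratios were 1.22, 1.40 and 1.14 in Hes1 KO versus 0.982 and 0.781 in WT, a comparison added after the data were seen. Per count of the early B and V(D)J list they were 0.811, 1.24 and 1.09 in Hes1 KO versus 0.703 and 0.740 in WT. In these 3 ratios every Hes1 KO library was above WT replicates 2 and 3, but ratios of single genes overlapped: Ighm per Cd79a count was 12.1, 9.54 and 8.56 in Hes1 KO versus 10.5 and 6.18 in WT, Igkc per Cd79a count was 1.22, 1.61 and 1.39 in Hes1 KO versus 2.05 and 0.785 in WT, and Ighm per Igll1 count was 10.2, 8.33 and 10.8 in Hes1 KO versus 14.0 and 6.40 in WT. Cd79a encodes part of the B cell receptor and Igll1 a part of the surrogate light chain. In WT replicate 1, with 39 immunoglobulin counts, the ratio was 1.26 per B cell identity count, above all 3 Hes1 KO libraries, and 0.411 per early B count, below all of them.

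Markers of neutrophils and macrophages moved with the groups. Of 9 T and NK genes tested 1 rose and 0 fell, and 0 of 11 stromal genes tested passed. All 12 erythroid genes had negative fold changes and 0 passed. Among all genes tested 7.50% were called higher and 8.04% lower. The neutrophil list took 4.89%, 13.3% and 6.00% of all counts in Hes1 KO versus 1.53% and 0.0364% in WT, and all 15 of its genes had positive fold changes, of which 1 passed and none was at 0 in these 5 libraries. Of 12 macrophage genes tested 6 rose and 0 fell, and the list took 1.02%, 2.01% and 1.12% in Hes1 KO versus 0.209% and 0.0175% in WT, where 4 and 0 of the 15 listed genes were at 0. The B cell identity list took 0.126%, 0.123% and 0.221% in Hes1 KO versus 0.605% and 0.305% in WT. The part of these differences in the immunoglobulin values was not tested.

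WT replicate 1 held 39 immunoglobulin counts in all, of which 29 were Igkc (438 CPM, Wilson 95% interval 305 to 629), 9 Igkv and 1 Ighv. Ighm had 0 counts there, where 3 counts would be 45.3 CPM and the Wilson 95% interval of 0 counts reaches 58.1 CPM, although it was at 912 CPM or more in each of the other 5 libraries. In all 275 members were at 0 there. Ighm counts per Igkc count were 5.11 to 9.91 in the other libraries and 0 in WT replicate 1.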

How the data were processed

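RNA sequencing counts of 6 libraries were used as deposited: whole-number read counts per gene symbol, made by the authors with featureCounts (named in the deposited table's name). The submitters' processing notes list GRCm39, edgeR and limma. Aligner, annotation, strand setting and handling of reads with several matches are not stated in these sources, so V genes with close copies and overlapping antisense transcripts are uncertain. Depth ran from 66167 to 22131465 counts a library.

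Groups came from sample titles. Members, gene lists, tests and the choice of 5 libraries (3 Hes1 KO, WT replicates 2 and 3) were made with earlier results of these data known. Counts were tested with edgeR 4.0.16 (R 4.3.3): filterByExpr (16190 genes), TMM scaling, the quasi-likelihood test with the legacy option off, and Benjamini-Hochberg adjustment over all genes tested, threshold 0.05. TMM factors were 1.05 to 1.26 for Hes1 KO and 1.37 and 0.445 for WT. Standard errors are the log2 fold change over the root of its F statistic. Sums, shares and ratios over members have no test, and single-library intervals are Wilson 95%, for counting error only.

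Named were all constant genes, the 8 most abundant Ighv and Igkv genes, all Iglv genes, and up to 8 passing members in each direction with at least 1 CPM in the higher group and no overlap. Of each context list up to 3 passing genes were named, or the 2 most abundant. Outside this rule, all passing plasma cell genes and all untested stromal genes were named. Alternatives were DESeq2 1.42.0, limma-voom (limma 3.58.1), other scalings and filters, all 6 libraries, a block for the replicate number, and fits without each library in turn. The edgeR test was tried on simulated counts whose spread was set the same for every gene, unlike real libraries. The changed genes were drawn only from those with a mean above 2 CPM. Of 100 genes changed 4-fold it called 98, and of 100 changed 16-fold it called 100, with 22 false calls. Since 9 of the 11 called members had a WT mean below 2 CPM, this trial does not bear on scarce V genes. Sequences, lengths and pseudogene classes came from GENCODE M21, which held 280 of the 281 members.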

Additional observations from a re-analysis of the deposited data

Results flagged for a closer look

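WT replicate 1, outside the comparison, held a few V gene counts whose level, even at the lower end of the counting interval, was above that of WT replicates 2 and 3. Igkv1-110 had 3 counts, or 45.3 CPM (lower bound 15.4), against 8.09 and 1.16 CPM in WT replicates 2 and 3. Igkv4-91 also had 3 counts, or 45.3 CPM (lower bound 15.4), against 1.20 and 0.578 CPM. Igkv14-130 had 2 counts, or 30.2 CPM (lower bound 8.29), against 0 and 0.0826 CPM. Igkv15-103 had 1 count, or 15.1 CPM (lower bound 2.67), against 1.20 and 0.908 CPM. They are the 4 Igkv genes with any count among the 122 in that library, so they were picked by being above 0, and 1 to 3 counts measure no level. In the comparison itself, groups of 3 and 2 libraries are too small to set a single library apart.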

How the results depend on the processing

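Against 11 members called lower in the 5-library fit, DESeq2 called 36 lower and 2 higher (Ighg1 and Ighv1-41), and no filter on low counts gave 6. All 6 libraries, library size alone and an adjusted p under 0.01 each gave 0 in edgeR, as did the replicate number as a block. These fits at a threshold of 0.05 also called 0 of all genes tested. An unadjusted p under 0.05 by edgeR was found for 17 members with all 6 libraries, beside 2219 of all 14756 genes. With library size alone it was 17 members, beside 3687 of all 16190 genes, and with the block 20, beside 2777. The deviations of the same-numbered libraries correlated at 0.0386 and 0.172 over 2 pairs, and the libraries share only a number. Other scalings gave 12, the legacy option 9 and limma-voom 8, of which 11, 9 and 8 were among the 11. In either direction the other scalings called 2417 and 2509 of all 16190 genes, the legacy option 1710 and limma-voom 1440, beside 2516 in the 5-library fit. The fit with no filter on low counts called 1868 of all 26981 genes. With 1 library left out the count of lower members ran from 0 to 26, of which 6 were among the 11 without WT replicate 2 and 10 without WT replicate 3, and the count of higher members from 0 to 2 (Jchain and Igha without WT replicate 2, Igkv5-39 without WT replicate 3). Without WT replicate 2 or 3 a single WT library remains, which the fit assumes to vary like the Hes1 KO libraries. No named member that passed changed sign under any of these settings. The log2 ratio of mean CPM was -0.23 for the Iglv sum, -1.04 with TMM, -0.69 in CPM of the counts outside the erythroid list and 0.36 with WT replicate 1 included. For the heavy chain constant sum it was -0.46, and under the same settings -1.17, -0.86 and 0.12. In plain CPM with 1 library left out the log2 ratio ran from -1.15 to 0.044 for Ighv and -1.17 to 0.20 for Igkv. For Jchain it ran from -0.083 to 3.53. The upper values were all without WT replicate 2, which leaves WT replicate 3 with its 42.7% erythroid counts. In CPM of the counts outside the erythroid list, WT replicate 3 was at 214 for Ighv and 145 for Igkv. The Hes1 KO means were 127 and 95.5. For Jchain the levels were 6.91 in WT replicate 3 and a mean of 45.7 in Hes1 KO. Differences of shares, Hes1 KO minus WT in percentage points, ran with 1 library left out from -0.33 to 8.58 for Igha, -3.36 to 6.69 for Iglv, -6.36 to 6.83 for the Igkv1 family and -3.60 to 8.54 for the 10 most abundant Igkv genes. With WT replicate 1 and its 1 Ighv and 9 Igkv counts included, they were -9.62 for the Ighv1 family, -0.32 for Ighv2 and Ighv5, -17.6 for the 10 most abundant Ighv genes and -16.4 for the 10 most abundant Igkv genes. The log2 ratio of immunoglobulin to B cell identity counts was 1.02, and 0.53 with early B genes, 0.51 without Ebf1 and 0.49 with WT replicate 1 included. The cause of these changes was not tested, except that WT replicate 1 adds almost no counts. For 122 members the counts were too low for the test.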

Other observations

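The joining and diversity segments of the same loci are not among the members and were looked at after the data were seen. Of 22 such rows 12 were tested, and 8, all Igkj or Ighj, were called lower in Hes1 KO and 0 higher by edgeR in the 5-library fit, beside 8.04% and 7.50% of all genes tested. All 5 kappa joining segments (Igkj) were lower, with summed levels of 5.96, 5.62 and 10.7 CPM in Hes1 KO versus 72.8 and 15.2 CPM in WT replicates 2 and 3, so the groups did not overlap in plain CPM. Of the 4 heavy chain joining segments (Ighj) 3 were lower, with sums of 23.3, 10.6 and 20.5 CPM in Hes1 KO versus 63.1 and 17.6 CPM in WT, which overlapped. Of the 9 heavy chain diversity rows 1 was tested and 0 called, with sums of 1.81, 0.756 and 1.22 CPM in Hes1 KO versus 1.72 and 1.90 CPM in WT, and of the 4 lambda joining rows 2 were tested and 0 called, with sums of 1.04, 1.65 and 2.19 CPM in Hes1 KO versus 1.89 and 2.81 CPM in WT. WT replicate 1 had 9 Ighj counts, or 136 CPM, and 0 Igkj counts.

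Kappa V gene shares were compared between libraries. Across the 122 Igkv genes, Pearson's r of the shares was 0.815 to 0.824 between Hes1 KO libraries, 0.421 to 0.627 between a Hes1 KO and a WT library, and 0.765 between WT replicates 2 and 3. Spearman's rho overlapped, at 0.821 to 0.855 within Hes1 KO, 0.719 to 0.809 between groups and 0.774 within WT. Across the 147 Ighv genes r was 0.713 to 0.788 within Hes1 KO, 0.558 to 0.861 between groups and 0.757 within WT, so the ranges overlapped. These are correlations across genes within pairs of libraries, which share depth and sequence likeness between V genes, and they were not tested.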
